A study of Mus musculus with 9 samples.

Results

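In all, 10 genes of sulfur amino acid metabolism were followed: the transsulfuration enzymes Cbs and Cth, the taurine enzymes Cdo1 and Csad, the glutathione synthesis genes Gclc, Gclm and Gss, and the sulfide and sulfite enzymes Mpst, Ethe1 and Suox. They were chosen by gene symbol, and all 10 of 10 symbols were found among the 24063 in the tables. RNA was sequenced from C2C12 cells, an established mouse myoblast line of wild-type genotype (1 line, not animals), differentiated in DMEM with 2% FBS and taken at day 3. The control group had normal medium, the 1C-MIM group had medium with metabolites of the one-carbon network (One-Carbon Metabolite Induced Medium), and the scramble group had the same number of metabolites from outside that network. Each group had 3 libraries. Which metabolites were added, and at what dose, was not given in the sources used here, so whether any is a substrate of an enzyme below is unknown.

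Transsulfuration carries the sulfur of homocysteine, the product of methyl transfer from S-adenosylmethionine, into cysteine. Cysteine is then used for protein, for glutathione, the main small thiol antioxidant of the cell, or for taurine, an abundant osmolyte of muscle. What is left can be broken down to hydrogen sulfide, which mitochondria oxidise to sulfite and sulfate. The liver is the tissue best known for transsulfuration, while muscle takes up much of its taurine through a transporter.

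Count totals with 1 transcript per gene were 29.0 to 33.2 M counts per library. In each group the library numbered 1 had the highest summed level of 17 muscle fibre markers: 14910 CPM (counts per 1000000 counts of the normalised library) against 9270 and 8061 in control, 13060 against 11420 and 10760 in 1C-MIM, and 13070 against 9241 and 9487 in scramble. All 17 markers passed the filter on low counts, and the sums overlapped between the groups. At an adjusted p below 0.05 (edgeR), 4 were higher and 2 lower with 1C-MIM than in control (35.3% called, beside 47.3% of all tested genes). Summed levels of 11 markers of undifferentiated and cycling cells were 1589 to 1994 CPM in control, 1694 to 1919 in scramble and 1099 to 1247 in 1C-MIM. Of these markers, 2 were higher and 8 lower against control (90.9% called, beside 47.3% of all tested genes). Among 11 markers of fibroblasts, fat and other cell types, the macrophage gene Emr1 and the epithelial gene Epcam were at 0 in every library. The sums of that list were 277 to 285 CPM in control, 301.5 to 319 in scramble and 595 to 603 in 1C-MIM, and Dcn alone had means of 197, 224 and 438 CPM in these groups. Only 4 of the 11 passed the filter, and 3 were higher and 0 lower against control (75% called, beside 47.3% of all tested genes). Pparg was not called (log2 fold change -0.18). The part of these shifts in the results below was not tested. In bulk RNA, fewer cells of a type and less RNA per cell cannot be told apart.

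With 1C-MIM both transsulfuration genes, Cbs and Cth, were higher, and Csad, Gclm, Mpst and Suox were lower. Against control, Cbs and Cth rose about 1.92-fold and 1.94-fold from low levels. Csad fell to 0.566 of its control level, Suox to 0.686, Gclm to 0.714 and Mpst to 0.869. Gclc, Gss, Ethe1 and Cdo1 were not called. Of the 10 genes, 6 were called at an adjusted p below 0.05 (edgeR's quasi-likelihood test), 2 higher and 4 lower, against 47.3% of the 14006 genes in the test, 22.9% higher and 24.3% lower. The groups of 3 libraries did not overlap for the same 6 genes, and for 55.5% of the genes in the test. The median log2 fold change was -0.16 for the 10 genes and -0.01 for all tested genes. With 10 genes and so high a background, the count is no result about these genes in particular.

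Against scramble, 6 of the 10 genes were called, 2 higher and 4 lower, against 46% of the genes in the test, 22.9% higher and 23.2% lower. Groups without overlap were seen for these 6 genes and for 59.5% of the genes in the test. The median log2 fold change was -0.07 for the 10 genes and -0.00043 for all. This comparison shares the 1C-MIM libraries with the one above, so the values of the 2 comparisons are given side by side below. Between scramble and control 0 of the 10 genes and 0% of the 14006 genes were called by edgeR. The groups did not overlap for Mpst, higher in scramble, and Cdo1, lower, and for 9.09% of the genes in the test. At an unadjusted p under 0.05 the counts were 1 member (Cdo1) and 482 genes, and limma-voom called 0 and 0. DESeq2 called 30 genes in all, but it gave none of the 10 genes an adjusted p here, so it could not call them.

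**Figure D1:**
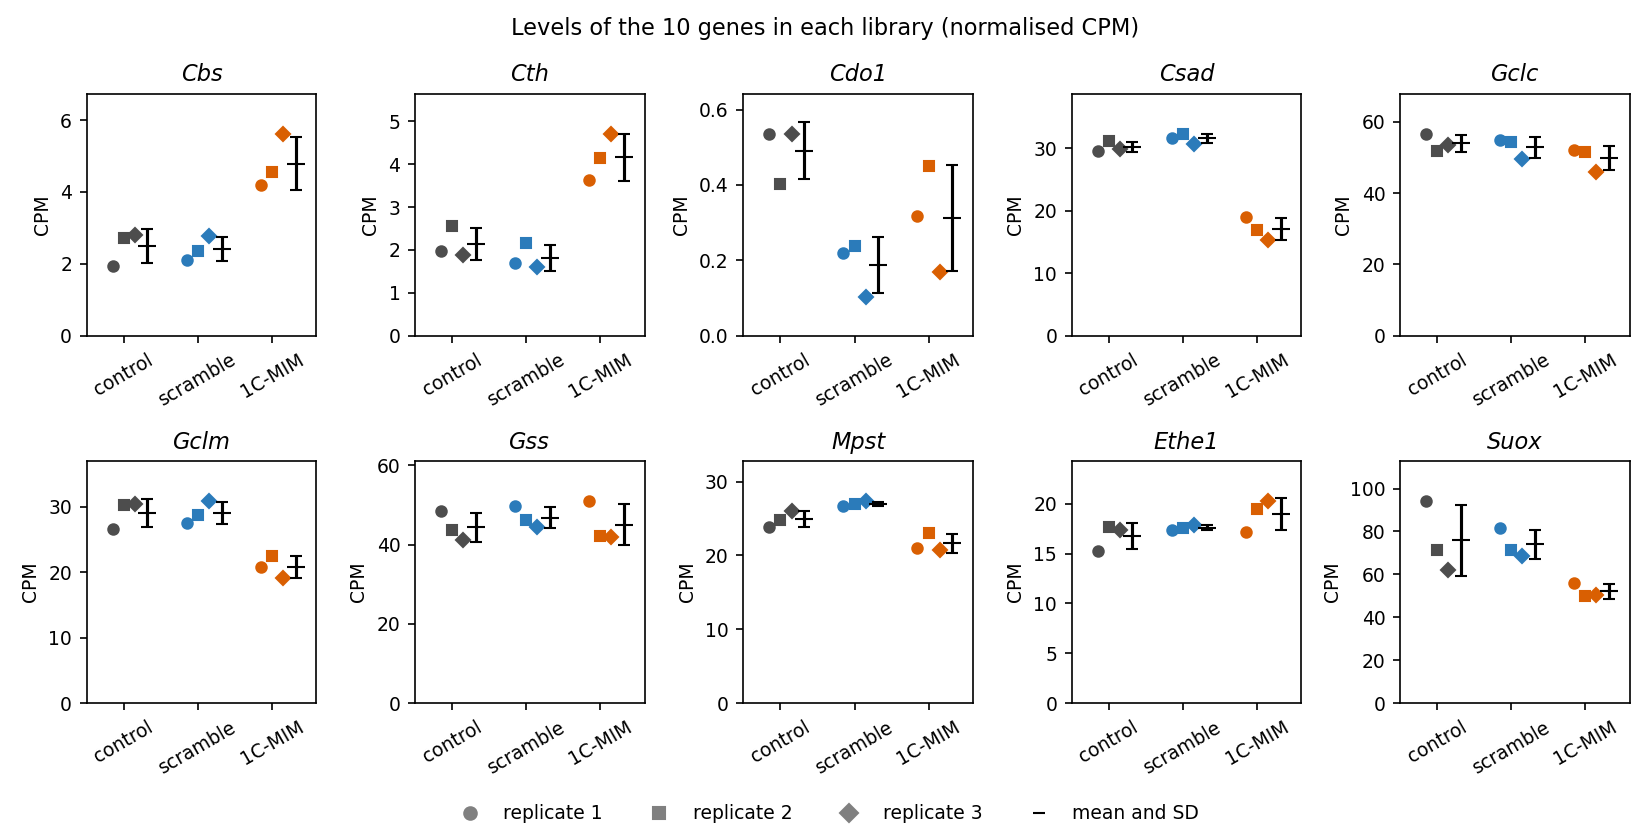
Normalised CPM (y axis) of each gene in the 9 libraries, by group (x axis), with replicate numbers as symbols and the mean ± SD of 3 libraries as a black bar. Cbs and Cth sit above, and Csad, Gclm, Mpst and Suox below, all control and scramble libraries in the 3 1C-MIM libraries, while the remaining genes overlap between 1C-MIM and the other groups.

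Cbs encodes cystathionine beta-synthase, which joins homocysteine to serine. Its level was 1.95, 2.72 and 2.80 CPM in control replicates 1 to 3, 2.10, 2.36 and 2.78 CPM in scramble, and 4.19, 4.56 and 5.62 CPM in 1C-MIM. Every 1C-MIM library was above every other library, and control and scramble overlapped. Cbs rose by a log2 fold change of 0.94 ± 0.18 (SE) against control (adjusted p = 0.0014) and 0.99 ± 0.18 against scramble (adjusted p = 0.0012). These levels rest on 62 to 94 counts per library in control, 67 to 82 in scramble and 119 to 167 in 1C-MIM. The 3 Cbs transcripts in the tables had nearly the same counts, 61 to 62 in control replicate 1 and equal in the other 8 libraries, so they do not tell which isoform was present.

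Cth encodes cystathionine gamma-lyase, which splits cystathionine to release cysteine. Cth stood at 1.98, 2.57 and 1.87 CPM in control, 1.69, 2.15 and 1.595 CPM in scramble, and 3.63, 4.14 and 4.71 CPM in 1C-MIM. Again the 1C-MIM libraries lay above all others. The log2 fold change was 0.96 ± 0.18 against control (adjusted p = 0.0011) and 1.2 ± 0.18 against scramble (adjusted p = 0.00034). Counts per library were 47 to 83 outside 1C-MIM and 103 to 140 within it.

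Per length of transcript, in the authors' TPM values, the 10 genes fell into a high and a low set in every group. In control the order was Suox (44.99 ± 11 TPM, SD, n = 3), Gss (31.4 ± 3.6), Mpst (26.1 ± 0.81), Gclc (21.9 ± 1.7), Gclm (19.45 ± 0.87), Csad (18.5 ± 0.34), Ethe1 (15.65 ± 0.72), Cth (1.65 ± 0.26), Cbs (1.38 ± 0.22) and Cdo1 (0.4465 ± 0.079). Of neighbours in this order, Gclm and Csad overlapped, and so did Cth and Cbs. In 1C-MIM the order was Gss (32.2 ± 3.9 TPM), Suox (31.2 ± 2.3), Mpst (23.0 ± 1.3), Gclc (20.5 ± 1.4), Ethe1 (18.0 ± 1.4), Gclm (14.1 ± 1.1), Csad (10.6 ± 1.2), Cth (3.25 ± 0.41), Cbs (2.69 ± 0.41) and Cdo1 (0.286 ± 0.13). There the neighbours Gss and Suox, Gclc and Ethe1, and Cth and Cbs overlapped. Ethe1 thus stood below Gclm and Csad in control and above both in 1C-MIM. In scramble the order was that of control, with Suox at 43.65 ± 4.8 TPM at the top and Cdo1 at 0.169 ± 0.068 at the bottom, and Gclc and Gclm overlapped there as well as the 2 pairs of control.

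The taurine branch starts at Cdo1, cysteine dioxygenase, which oxidises cysteine to cysteine sulfinate. Cdo1 was close to the limit of detection, with 17, 13 and 18 counts in control, 9, 13 and 5 in 1C-MIM, and 7, 7 and 3 in scramble. The control libraries lay above the scramble libraries and overlapped those of 1C-MIM. Its log2 fold change was -0.66 against control (95% interval -1.52 to 0.21, adjusted p = 0.19) and 0.72 against scramble (-0.33 to 1.76, adjusted p = 0.24). Single libraries moved both values: without 1C-MIM replicate 2 they were -1.01 and 0.36, without 1C-MIM replicate 3 they were -0.35 and 1.02, and without scramble replicate 3 the value against scramble was 0.43. Scramble against control gave -1.37 (95% interval -2.32 to -0.43, adjusted p = 1, unadjusted p = 0.0085). The gene reached the 10 counts that the filter asks for only in the control libraries and in 1C-MIM replicate 2, so this last difference is tied to how the gene entered the test. Ado, which makes hypotaurine from cysteamine by another route, stood at 77.4 ± 4.9 CPM in control and 79.0 ± 3.7 in 1C-MIM and was not called (log2 fold change 0.03 ± 0.06).

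Csad encodes cysteine sulfinic acid decarboxylase, which turns the product of Cdo1 into hypotaurine, and had the smallest p of the 10 genes in both comparisons of 1C-MIM. Its level was 29.6, 31.1 and 29.96 CPM in control, 31.7, 32.3 and 30.8 CPM in scramble, and 19.0, 16.9 and 15.4 CPM in 1C-MIM. The control and scramble libraries together spanned less than the gap between them and 1C-MIM. Csad fell by 0.82 ± 0.07 on the log2 scale against control (adjusted p = 1.0e-05) and by 0.89 ± 0.07 against scramble (adjusted p = 7.8e-06), which is 43.4% and 45.9% less RNA. In GENCODE M21 gene models, 7.26% of the exon bases of Csad also belong to Zfp740 on the opposite strand, and strand use was not given in the sources used here. Zfp740 itself rose by 0.12 ± 0.04 (adjusted p = 0.034). Slc6a6, the taurine transporter, went the other way from Csad, with 756, 599.8 and 611 CPM in control, 775, 648 and 663 CPM in scramble, and 1089, 999.9 and 1021 CPM in 1C-MIM (log2 fold change 0.66 ± 0.10 against control, adjusted p = 0.00028). Fmo1, a monooxygenase that can oxidise hypotaurine to taurine, rose from 127 ± 5.3 to 233 ± 7.1 CPM (0.88 ± 0.05, adjusted p = 5.0e-07).

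**Figure D2:**
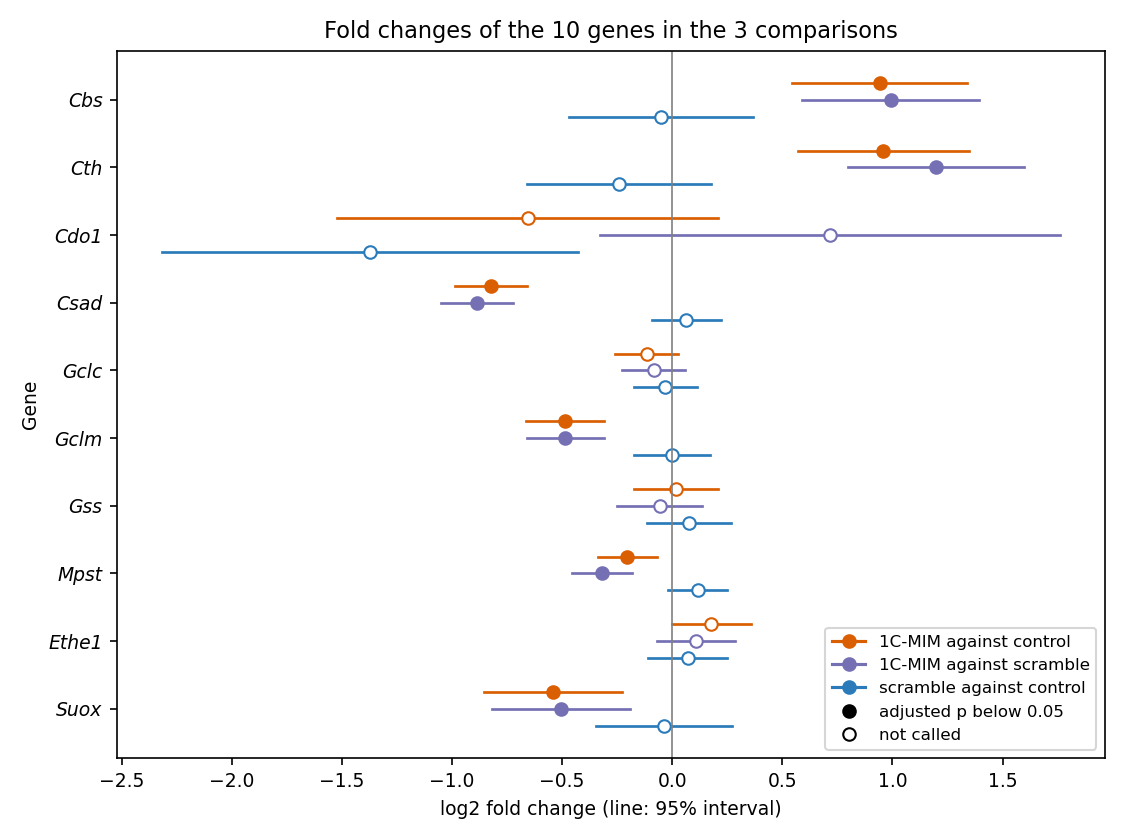
log2 fold change (x axis) of each gene (y axis) in the 3 comparisons, as points with 95% intervals from the edgeR fit, filled where the adjusted p was below 0.05. The 2 transsulfuration genes lie near 1 and Csad near -0.8 in both comparisons of 1C-MIM, every scramble against control point is open, and Cdo1 has the widest intervals.

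Glutathione is made in 2 steps. Glutamate-cysteine ligase, a pair of the catalytic subunit GCLC and the modifier subunit GCLM, joins glutamate to cysteine and sets the rate, and glutathione synthetase, encoded by Gss, adds glycine. Gclm fell while its partner was not called. Gclm stood at 26.6, 30.2 and 30.4 CPM in control, 27.6, 28.7 and 30.9 CPM in scramble, and 20.7, 22.4 and 19.1 CPM in 1C-MIM, with no overlap between 1C-MIM and either other group. Of its exon bases, 4.71% also belong to Gm17494 on the opposite strand and 3.88% to the pseudogene Gm6061 on the same strand. The log2 fold change was -0.49 ± 0.08 against control (adjusted p = 0.00053) and -0.48 ± 0.08 against scramble (adjusted p = 0.00059).

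Gclc stood at 56.7, 51.9 and 53.6 CPM in control, 54.9, 54.2 and 49.5 CPM in scramble, and 52.1, 51.5 and 46.1 CPM in 1C-MIM, and the groups overlapped. Its log2 fold change was -0.12 against control (95% interval -0.26 to 0.027, adjusted p = 0.16) and -0.08 against scramble (-0.23 to 0.058, adjusted p = 0.31). Gss stood at 48.4, 43.7 and 41.1 CPM in control, 49.7, 46.1 and 44.5 CPM in scramble, and 50.9, 42.2 and 41.8 CPM in 1C-MIM. Its fold change was 0.018 against control (95% interval -0.17 to 0.21, adjusted p = 0.88) and -0.057 against scramble (-0.25 to 0.13, adjusted p = 0.62). The intervals leave room for changes of Gclc and Gss up to about 0.26 on the log2 scale. Gss shares 6.68% of its exon bases with Acss2 on the opposite strand, which had a log2 fold change of -0.0086 (adjusted p = 0.95). It also shares 5.44% with Gssos1 and 6.51% with Gssos2, antisense genes that have no value among the tested genes.

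The ratio of the ligase subunits within a library does not depend on the scaling between libraries. The TPM of Gclc over that of Gclm was 1.29, 1.04 and 1.07 in control (mean 1.13 ± 0.14), 1.2, 1.14 and 0.97 in scramble (1.11 ± 0.12), and 1.52, 1.39 and 1.46 in 1C-MIM (1.45 ± 0.066). The 3 ratios of 1C-MIM were above all 6 others. The mean log2 ratio was higher by 0.37 than in control and by 0.40 than in scramble, each with a two-sided exact permutation p = 0.1, which is the smallest that 3 against 3 libraries can give. Scramble and control differed by -0.032 (exact permutation p = 1).

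**Figure D3:**
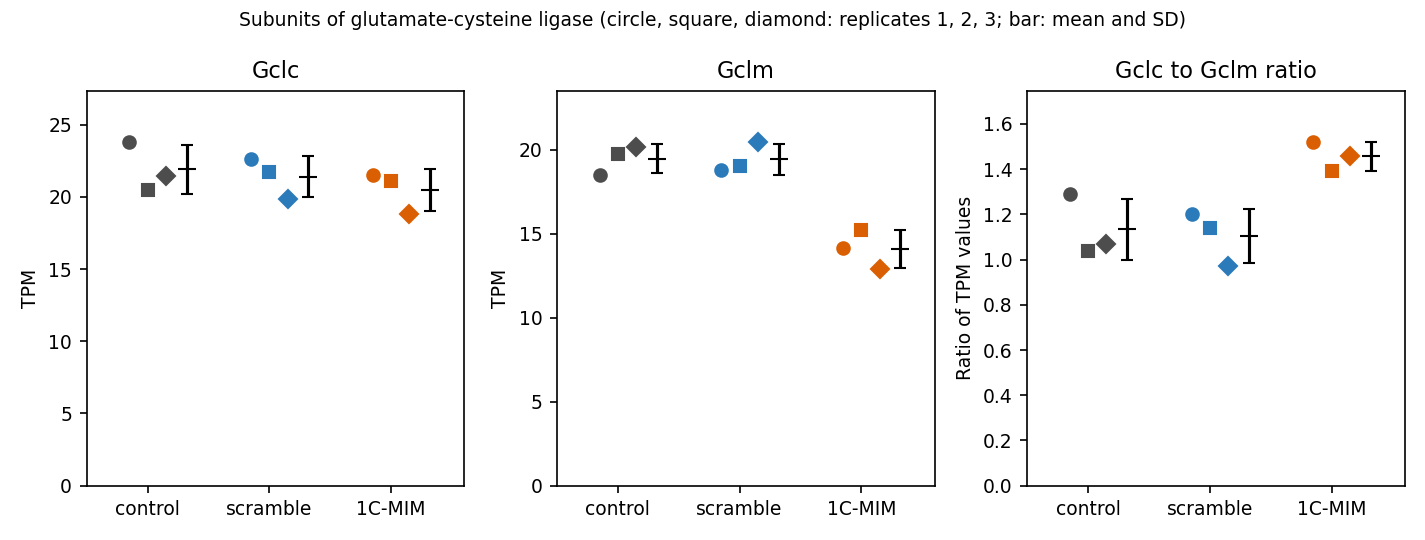
TPM (y axis, left and middle panels) of the catalytic subunit gene Gclc and the modifier subunit gene Gclm, and the ratio of these values (y axis, right panel), by group (x axis), with the 3 libraries as symbols and the mean ± SD as a black bar. Gclm and the ratio separate 1C-MIM, with ratios of 1.39 to 1.52, from control and scramble, with ratios of 0.97 to 1.29, while Gclc overlaps.

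The upstream 250 bases of Cbs, Gclm and Suox are shown because these are the called genes with a single start in the RefSeq promoter table (build GRCm38.p6). They were searched on both strands for the antioxidant response element core TGACNNNGC, bound by NRF2 with small MAF proteins, and the C/EBP-ATF response element core TGATGNAA, bound by ATF4 with C/EBP proteins. Bases are 5′ to 3′ along the gene and end just before the start, and capitals mark a match. Cbs lies on the minus strand at chr17:31637206-31637455, Gclm on the plus strand at chr3:122245307-122245556 and Suox on the minus strand at chr10:128673919-128674168.
Cbs: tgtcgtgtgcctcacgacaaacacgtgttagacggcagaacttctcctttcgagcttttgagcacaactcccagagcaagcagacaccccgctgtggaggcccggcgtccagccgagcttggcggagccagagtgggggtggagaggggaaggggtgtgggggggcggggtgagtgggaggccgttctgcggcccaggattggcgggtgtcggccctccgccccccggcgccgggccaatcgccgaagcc
Gclm: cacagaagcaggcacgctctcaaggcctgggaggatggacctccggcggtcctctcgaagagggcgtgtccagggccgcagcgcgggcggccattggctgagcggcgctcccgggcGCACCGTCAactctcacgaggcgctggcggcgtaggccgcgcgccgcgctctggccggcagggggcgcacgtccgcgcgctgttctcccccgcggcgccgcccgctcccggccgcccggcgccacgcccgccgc
Suox: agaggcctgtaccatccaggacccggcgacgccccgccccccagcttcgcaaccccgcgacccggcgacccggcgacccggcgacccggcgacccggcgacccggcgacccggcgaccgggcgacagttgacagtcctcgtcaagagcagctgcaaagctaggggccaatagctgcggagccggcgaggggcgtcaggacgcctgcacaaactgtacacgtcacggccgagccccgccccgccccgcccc

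The capitals in Gclm, which begin 134 bases before the start, are TGACGGTGC read on the other strand. Cbs and Suox had no match in this window. Among 32851 promoters of the table, 10.2% held the antioxidant core in the same window and 3.45% the C/EBP-ATF core. Of the other genes, 1 of the 3 Mpst promoters held the antioxidant core (TGACATGGC, beginning 12 bases before the start), and Gss, both Csad promoters and both Ethe1 promoters had no match. Cth, Gclc and Cdo1 are not in the table. The deposited counts were made on GRCm39, per the submitters' processing notes, so these positions are those of the promoter table only, and a match is a description of letters.

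In mitochondria cysteine sulfur passes through several enzymes. Mpst encodes mercaptopyruvate sulfurtransferase, which takes sulfur from 3-mercaptopyruvate, Ethe1 encodes the persulfide dioxygenase that makes sulfite, and Suox encodes sulfite oxidase, which makes sulfate. Suox, the highest of the 10 genes per length in control, stood at 94.0, 71.2 and 62.2 CPM in control, 81.7, 71.2 and 68.8 CPM in scramble, and 56.2, 49.7 and 50.2 CPM in 1C-MIM. All 1C-MIM libraries were below all others, and within each group the library numbered 1 was the highest. Suox fell by 0.54 ± 0.14 against control (adjusted p = 0.010) and by 0.51 ± 0.14 against scramble (adjusted p = 0.015). Without control replicate 1 the fold change against control was -0.36 (adjusted p = 0.0038), and without the 3 libraries numbered 1 it was -0.42 (adjusted p = 5.5e-06). Against scramble the call was lost without 1C-MIM replicate 2 (-0.47, adjusted p = 0.051), 1C-MIM replicate 3 (-0.48, adjusted p = 0.051) or scramble replicate 1 (-0.43, adjusted p = 0.054).

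Mpst had the smallest called change. It stood at 23.9, 24.8 and 26.0 CPM in control, 26.7, 26.9 and 27.3 CPM in scramble, and 20.995, 23.1 and 20.8 CPM in 1C-MIM. The 1C-MIM libraries were below all others, and the scramble libraries were above the controls. Mpst fell by 0.20 ± 0.06 against control (adjusted p = 0.019) and by 0.32 ± 0.06 against scramble (adjusted p = 0.0016). The call against control was lost without control replicate 3 (-0.17, adjusted p = 0.074), 1C-MIM replicate 1 (-0.18, adjusted p = 0.062) or 1C-MIM replicate 3 (-0.18, adjusted p = 0.074). Scramble against control gave 0.12 for Mpst (95% interval -0.018 to 0.25, adjusted p = 1).

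Ethe1 did not pass the threshold in either comparison. It stood at 15.3, 17.6 and 17.4 CPM in control, 17.4, 17.5 and 17.9 CPM in scramble, and 17.2, 19.5 and 20.3 CPM in 1C-MIM, so the groups overlapped. The log2 fold change was 0.18 against control (95% interval -0.00038 to 0.36, adjusted p = 0.093) and 0.11 against scramble (-0.071 to 0.29, adjusted p = 0.30). With the replicate number as a block the adjusted p against control was 0.049 (log2 fold change 0.18), without 1C-MIM replicate 1 it was 0.033 (0.24), and without the 3 libraries numbered 1 it was 0.0498 (0.18). Without control replicate 1 the log2 fold change was smaller, at 0.11 (adjusted p = 0.26), and without 1C-MIM replicate 3 it was 0.13 (adjusted p = 0.28). Against scramble it was 0.058 without 1C-MIM replicate 3 (adjusted p = 0.64) and 0.17 without 1C-MIM replicate 1 (adjusted p = 0.11). Ethe1 shares 6.67% of its exon bases with Zfp575 on the opposite strand, whose level was 0.336 CPM in control.

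Of the neighbours of these enzymes in taurine and sulfide metabolism, 5 of 12 tested genes were higher and 4 lower against control (75% called, beside 47.3% of all genes in the test, with a median log2 fold change of 0.19). Against scramble 3 were higher and 4 lower (58.3% called, beside 46% of all genes, median 0.16). Sqrdl, the sulfide quinone oxidoreductase that takes up sulfide ahead of Ethe1, stood at 38.8, 44.8 and 45.3 CPM in control, 42.2, 45.9 and 45.9 CPM in scramble and 23.4, 28.6 and 27.5 CPM in 1C-MIM. It fell by 0.70 ± 0.08 against control (adjusted p = 7.7e-05) and by 0.75 ± 0.08 against scramble. Tst, the thiosulfate sulfurtransferase rhodanese, fell from 7.68 ± 0.91 to 4.48 ± 0.42 CPM (-0.78 ± 0.13, adjusted p = 0.00075), and Tstd3, a gene with a rhodanese-type domain, fell by 0.54 ± 0.105.

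Transport of the precursors moved in both directions. Of 11 tested transporters of cystine, glutamate, glycine, taurine and glutathione, 4 were higher and 3 lower against control (63.6% called, beside 47.3% of all genes, median 0.22). Against scramble the counts were 4 and 3 (63.6% called, beside 46%, median 0.22). Slc7a11, the cystine carrier subunit xCT, stood at 33.4, 42.6 and 38.6 CPM in control, 37.0, 44.1 and 39.9 CPM in scramble, and 23.2, 19.2 and 22.2 CPM in 1C-MIM. It fell by 0.83 ± 0.10 against control (adjusted p = 0.00010) and by 0.91 ± 0.10 against scramble. Slc3a2, the heavy chain that xCT shares with other amino acid carriers, rose from 102 ± 0.70 to 157 ± 6.0 CPM (0.63 ± 0.05, adjusted p = 6.1e-06). Slc25a40, a mitochondrial glutathione carrier, fell from 16.9 ± 1.5 to 10.6 ± 1.5 CPM (-0.68 ± 0.10). Its paralogue Slc25a39, in the same list but named after its values were seen, rose from 90.9 ± 5.1 to 115 ± 5.1 CPM (0.34 ± 0.05, adjusted p = 0.00043) and by 0.26 ± 0.05 against scramble.

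Upstream of Cbs, 8 genes that make, use or remethylate homocysteine, or are relatives of such genes, were tested. Against control 3 were higher and 1 lower (50% called, beside 47.3% of all genes, median -0.028). Against scramble the counts were 3 and 1 (50% called, beside 46%, median 0.063). Mtr, methionine synthase, which competes with Cbs for homocysteine, stood at 30.9, 29.6 and 28.5 CPM in control and 49.6, 52.9 and 55.8 CPM in 1C-MIM. It rose by 0.83 ± 0.06, and Mtrr, its reductase, by 0.39 ± 0.07. Ahcyl1, a relative of the homocysteine-forming hydrolase, rose by 0.34 ± 0.07, and Mat2a, which makes S-adenosylmethionine, fell by 0.46 ± 0.05. Ahcy, the hydrolase itself, was named after its values were seen. It was not called against control (-0.20 ± 0.08, adjusted p = 0.072) or against scramble (-0.18 ± 0.08, adjusted p = 0.092). Bhmt and Bhmt2, the betaine-dependent route of remethylation, were at 0 in every library, where 3 counts would be 0.0892 to 0.106 CPM.

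Genes that use or degrade glutathione changed in both directions. Of 12 tested peroxidases, reductases and glutaredoxins 5 were higher and 2 lower against control (58.3% called, beside 47.3% of all genes, median 0.16). Against scramble 4 were higher and 1 lower (41.7% called, beside 46% of all genes, median 0.12). Gpx1, the cytosolic glutathione peroxidase, rose from 114 ± 14 to 157 ± 8.0 CPM (0.46 ± 0.08, adjusted p = 0.0010), the mitochondrial glutaredoxin genes Glrx5 and Glrx2 rose by 0.38 ± 0.05 and 0.26 ± 0.07, and Hagh, of methylglyoxal removal, by 0.28 ± 0.06. Against scramble, Glrx2 (0.21 ± 0.07) lost its call in 5 of the 19 alternatives and Hagh (0.19 ± 0.06) in 2. For breakdown and export 4 of 13 were higher and 3 lower against control (53.8% called, beside 47.3% of all genes, median 0.026). Against scramble the counts were 4 and 3 (53.8% called, beside 46%, median 0.052). Chac1, which degrades glutathione in the cytosol, rose from 10.6 ± 1.4 to 15.4 ± 0.88 CPM (0.55 ± 0.10, adjusted p = 0.0011), while Ggct, a gamma-glutamylcyclotransferase, fell by 0.51 ± 0.12. Anpep, a surface aminopeptidase, fell by 0.48 ± 0.12 and the leucine aminopeptidase gene Lap3 rose by 0.18 ± 0.05.

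Gclm and Slc7a11 are known targets of the antioxidant factor NRF2, and Cth, Chac1 and Slc7a11 of the amino acid response factor ATF4. Gclm and Slc7a11 fell, and Gclc, the other ligase subunit gene, was not called (-0.12 against control, adjusted p = 0.16). Of 21 genes of the NRF2 system 6 were higher and 9 lower against control (71.4% called, beside 47.3% of all genes, median -0.012), and against scramble 4 and 9 (61.9% called, beside 46%, median -0.031). Fth1, ferritin heavy chain, rose from 1549 ± 53 to 2289 ± 31 CPM (0.56 ± 0.06) and Osgin1, an oxidative stress response gene, by 0.60 ± 0.10, while Tkt, transketolase, fell by 0.69 ± 0.08. Of 20 genes of the ATF4 system 9 were higher and 6 lower against control (75% called, beside 47.3% of all genes, median 0.11). Against scramble the counts were 8 and 5 (65% called, beside 46%, median 0.12). The amino acid carrier gene Slc7a5 rose by 0.63 ± 0.08 and Nupr1, a stress-response gene, fell from 43.05 ± 3.6 to 23.3 ± 2.1 CPM (-0.89 ± 0.10). Both lists held called genes in each direction. Whether either factor has a part in these changes was not tested.

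**Figure D4:**
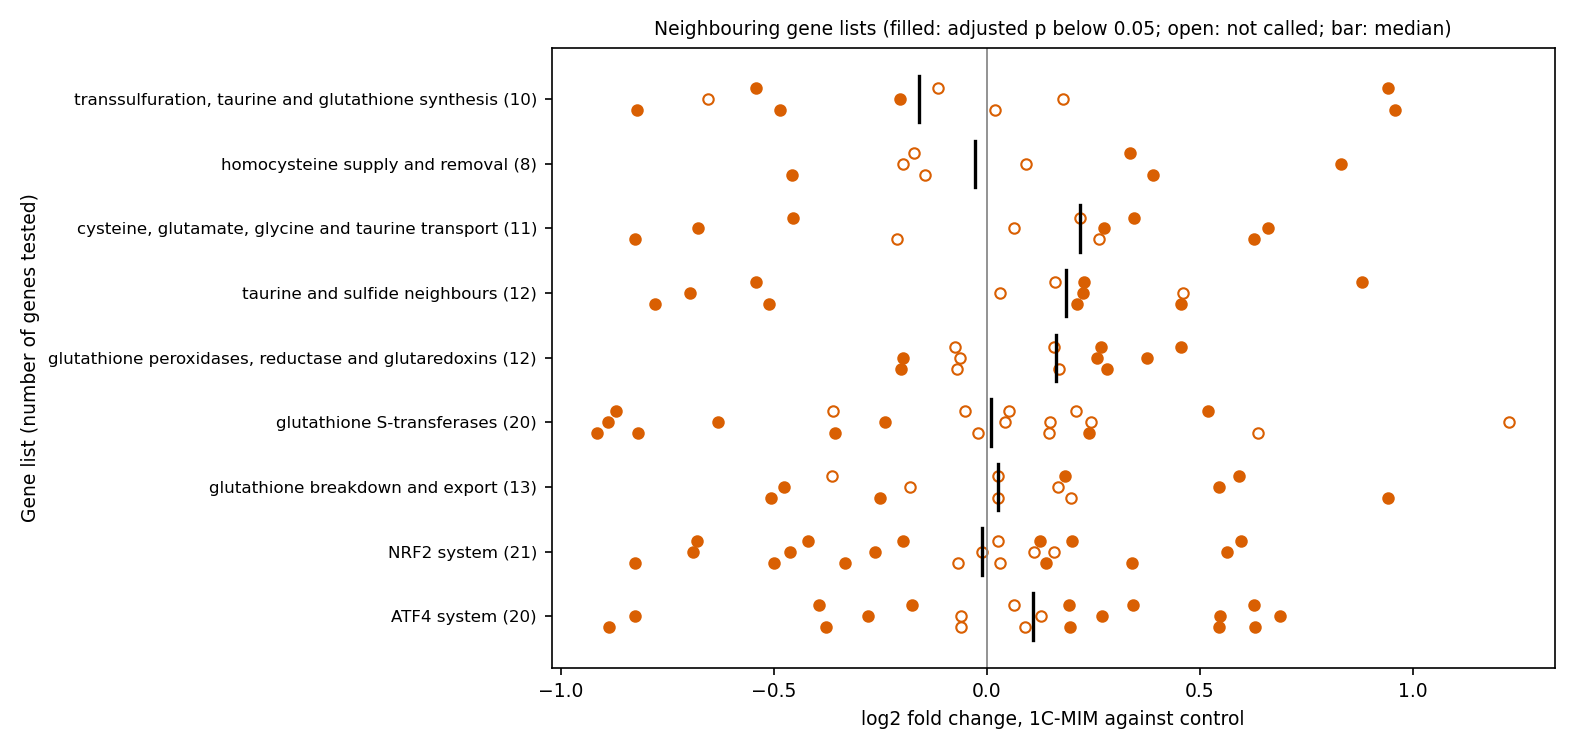
log2 fold change of 1C-MIM against control (x axis) for each tested gene of the 9 lists (y axis, with the number tested), filled where the adjusted p was below 0.05, with a black bar at the list's median. Each list holds called genes on both sides of 0, and the medians lie between -0.16 and 0.22.

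Called members with a mean of at least 5 CPM were compared with 10507 other genes by Pearson correlation of log2(CPM + 1) over the 9 libraries, as a description. Libraries of 1 group share their treatment, so a gene that separates 1C-MIM in the same direction as the member tends to score highly. For Csad the closest were Igsf8 (r = 0.996), of the immunoglobulin superfamily, and Itpr3 (r = 0.996), an inositol trisphosphate receptor, and 1409 genes had r above 0.9. For Gclm they were the hydroxylase gene Cyp39a1 (r = 0.993) and Rdh11, a retinol dehydrogenase (r = 0.991). Suox was closest to Bicd1, a dynein adaptor (r = 0.995), and Casq2, a calcium-binding protein of the sarcoplasmic reticulum (r = 0.992), with 317 genes above 0.9. Mpst was closest to Pign, of glycosylphosphatidylinositol anchor synthesis (r = 0.988), and Ift140, of intraflagellar transport (r = 0.985). Casq2, like Suox, was lower with 1C-MIM, at 424 CPM against 621 in control and 609.8 in scramble. Its call against control (log2 fold change -0.55, adjusted p = 0.020) was lost without 1C-MIM replicate 2 (-0.54, adjusted p = 0.057) or replicate 3 (-0.51, adjusted p = 0.069). Against scramble (-0.52) the call of Casq2 was lost in 5 of the 19 alternatives, with log2 fold changes of -0.55 to -0.45, among them the fit with no filter on low counts (-0.53, adjusted p = 0.052).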

How the data were processed

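C2C12 libraries were made with a SMARTer mRNA-seq kit, per the labels' protocols. The submitters' processing notes list GRCm39 and, among other tools without roles, Salmon 1.5.2, featureCounts and STAR. Per the file headers, 33984 transcripts each have a deposited count, FPKM and TPM. The authors' counts are whole numbers without normalization. The authors' FPKM values served only to recover transcript lengths, and the authors' TPM values to compare genes.

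Each symbol was represented by its transcript with the highest mean count, since transcripts of a gene share reads. For the lists, 7 symbols were matched to older ones by RefSeq accession. The 14006 genes that passed filterByExpr (minimum count 10) were tested with edgeR 4.0.16 (limma 3.58.1, R 4.3.3) by quasi-likelihood on all 9 libraries, with TMM scaling and Benjamini-Hochberg adjustment over all of them. CPM are on TMM-scaled library sizes, and SE is from that fit. The procedure was run on simulated data with far fewer changed genes than were called here. That run cannot show how it behaves when so many genes change. The labels do not say that libraries came from separate cultures, so the spread behind the p-values is that of these libraries and may be technical.

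The 10 genes, the lists and the tests were chosen with earlier results of these data known. All 10 genes are named, with up to 4 genes per list by smallest p against control, and Ado, Ahcy and Slc25a39, chosen after their values were seen. Alternatives were RLE, upper quartile and no scaling, no filter, limma-voom, DESeq2 1.42.0, the mean over transcripts, a fit of the compared groups alone, libraries left out and the replicate block. Numbers were taken to pair the libraries where every same-numbered pair deviated together at r above 0.1. This held for 1C-MIM with control (0.24, 0.125 and 0.11) and scramble with control (0.66, 0.381 and 0.312), though the labels name no shared batch. Pairs of different number ranged from -0.553 to 0.396. Control replicate 2 with 1C-MIM replicate 3 (0.166) and control replicate 3 with scramble replicate 2 (0.396) exceeded some same-numbered pairs. The numbers are thus not shown to match libraries 1 to 1. Those numbered 1 did deviate together in each pair of groups (0.24, 0.66 and 0.22).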

Additional observations from a re-analysis of the deposited data

How the results depend on the processing

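Over 19 alternatives each, Cbs, Cth, Csad and Gclm kept their call and direction in both comparisons of 1C-MIM, with log2 fold changes against control of 0.79 to 1.03, 0.86 to 1.10, -0.92 to -0.75 and -0.55 to -0.43. Of the 10 genes, Suox, Mpst and Ethe1 changed call in some alternative, and their values stand beside those results. Of the other genes followed through the alternatives, Casq2, Glrx2 and Hagh lost calls. Dcn gained one for scramble against control, under DESeq2 (0.18, adjusted p = 0.047) and without the 3 libraries numbered 1 (0.20, adjusted p = 0.012). Ado, Ahcy, Slc25a39, Zfp740, Acss2 and Zfp575 were not followed in this way. The count of called members was 5 to 6 with 1 library left out, and 7 against control without the 3 libraries numbered 1. How many of all genes were called in these fits is not given here, so these counts are no result about the 10 genes. With the replicate block, 7 members and 7397 genes were called against control (6 and 6621 in the main fit). Against scramble the block gave 6 and 7309 (6 and 6449 in the main fit). It changed no other call of a member than that of Ethe1. By the rule given above, numbers did not pair 1C-MIM with scramble (r = 0.22, 0.102 and 0.0252), so the block adds nothing from the design there. Between scramble and control, where edgeR called 0 genes, DESeq2 called 30, the fit without the 3 libraries numbered 1 called 96, and single libraries left out gave 0 to 3 (3 without control replicate 1). The cause was not tested. None of the 10 genes was among them, though DESeq2 gave these 10 genes no adjusted p in that comparison and so could not call them. Cdo1, with 3 to 18 counts per library, allows no firm statement at this depth.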

Other observations

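Of 26 glutathione S-transferase genes, which attach glutathione to other molecules, 20 passed the filter. Against control 2 were higher and 7 lower with 1C-MIM (45% called, where 47.3% of all genes were), with a median log2 fold change of 0.0097. Against scramble 1 was higher and 7 lower (40% called, where 46% of all genes were, median -0.081). Gstm2, a cytosolic mu-class enzyme, fell from 24.2 ± 0.80 to 13.7 ± 0.54 CPM (-0.82 ± 0.06, adjusted p = 4.4e-06), with 25.3 ± 1.1 CPM in scramble. Mgst3, a microsomal enzyme, fell from 33.4 ± 3.7 to 18.0 ± 0.33 CPM (-0.89 ± 0.08, adjusted p = 1.5e-05), and Gstm1 fell by 0.36 ± 0.08. Gstp1, of the pi class, rose from 94.3 ± 3.6 to 111 ± 4.1 CPM (0.24 ± 0.05, adjusted p = 0.0040). Genes of these classes have near-identical copies, so their values are uncertain to the extent that reads were split between them.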
